A study of Drosophila melanogaster with 2 samples.

Results

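The nuclear tRNA genes were taken from the annotation of the D. melanogaster genome as every gene of the biotype tRNA on the chromosome arms X, 4, 3R, 3L, 2R and 2L. There were 290 of them among 312 annotated tRNA genes, the other 22 being mitochondrial, and among 18164 annotated genes on these arms once transposable elements were set aside. They measured 71 to 186 bp, with a median of 73 bp, and covered 22 amino acid classes, counting initiator methionine and selenocysteine apart, and 45 anticodon classes. A gene was called bound when a summit of the reproducible peak list lay within 500 bp of it. The reproducible list is the one that passed the irreproducible discovery rate (IDR) step, which is meant to keep peaks ranked alike in both replicates. It held 3413 peaks, 3380 of them on the 6 arms. The word reproducible is used here as a name for this list. On the arms, 1 peak near tRNA genes and 133 others overlapped no replicate 4 entry, and 2 others no replicate 3 entry. The strongest pooled peaks, taken to the same list length, gave the same count of bound tRNA genes, 34. On the arms these lists held 3381 and 3380 peaks, and their tRNA counts were equal at every distance used. They are close to the same list, so the match is not independent support. The assay was chromatin immunoprecipitation with sequencing (ChIP-seq) of Brinker, a transcriptional repressor of Dpp/BMP target genes. The flies were a transgenic line, brk-GFP, that stably carries Brinker with GFP at its C terminus, and chromatin of sonicated whole larvae was precipitated with an antibody against GFP. There was 1 group, mixed-sex wandering third-instar larvae, with 2 biological replicates, numbered 3 and 4. No untagged, mock or input sample was analysed here, the larvae were not sorted by tissue, and all values describe the tagged protein in that line.

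A tRNA gene carries its promoter inside the transcribed sequence. The general factor TFIIIC recognises 2 short internal elements, the A box and the B box, and places TFIIIB just upstream of the start, where it recruits RNA polymerase III. In flies the TBP-related factor Trf works with Brf in TFIIIB. tRNA genes are repeated, often stand in clusters, can lie in introns of protein-coding genes, and a few have a short intron of their own. Each name gives the amino acid and the anticodon, followed by a number for the sequence family and one for the copy.

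The sequences of 7 genes show what the peaks stand beside and where the internal promoter elements fall. All come from the RefSeq Release 6 genome and are written 5′ to 3′ on the gene's strand. Capitals mark letters that match the A box pattern TGGNNNAG or the B box pattern GTTCNANNC, where N is any base. The first 6 lie within 500 bp of a reproducible summit, and the last, Tyr-GTA-1-7, does not.
Tyr-GTA-1-8: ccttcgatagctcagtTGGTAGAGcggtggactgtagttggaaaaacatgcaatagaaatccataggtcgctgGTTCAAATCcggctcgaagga
Gln-TTG-2-1: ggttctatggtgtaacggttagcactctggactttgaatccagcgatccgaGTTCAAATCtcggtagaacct
Leu-TAA-2-1: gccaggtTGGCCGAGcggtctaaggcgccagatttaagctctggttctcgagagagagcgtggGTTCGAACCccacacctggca
Lys-TTT-1-1: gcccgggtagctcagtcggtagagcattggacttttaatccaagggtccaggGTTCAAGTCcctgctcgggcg
Ile-TAT-1-1: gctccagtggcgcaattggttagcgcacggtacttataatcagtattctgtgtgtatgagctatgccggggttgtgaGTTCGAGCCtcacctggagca
Cys-GCA-1-3: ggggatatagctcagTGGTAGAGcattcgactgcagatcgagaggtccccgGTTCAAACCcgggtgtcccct
Tyr-GTA-1-7: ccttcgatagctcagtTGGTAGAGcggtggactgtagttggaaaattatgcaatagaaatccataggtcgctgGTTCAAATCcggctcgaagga
Tyr-GTA-1-8 lies at chr3R:8669081-8669174, minus strand, and Tyr-GTA-1-7 at chr3R:8668612-8668705, minus strand. Of their 94 bases 2 differ, A46T and C47T, counted from the first base of the gene with the base of Tyr-GTA-1-8 first. Gln-TTG-2-1 lies at chrX:3427452-3427523, minus strand, Leu-TAA-2-1 at chr3R:24112964-24113047, plus strand, and Lys-TTT-1-1 at chr2L:8290727-8290799, plus strand. Ile-TAT-1-1 lies at chr3L:769503-769600, plus strand, and Cys-GCA-1-3 at chr3L:3096369-3096440, plus strand. Cys-GCA-1-3 is 1 of 4 genes with the same sequence, and the other 6 shown have no identical copy among the nuclear tRNA genes.

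Brinker is known to bind a GC-rich site, searched here on both strands as GGCG followed by 2 bases that are each C or T; with C at both places the site reads the same on either strand. The windows of 100 bp to each side of 3 summits near tRNA genes show what the ChIP peaks are centred on, with these letters, read on either strand, in capitals. They are written on the plus strand of the RefSeq Release 6 genome. The first is the strongest peak near a tRNA gene, at chr3R:8669244-8669444, and holds no such site; the others are the windows at chr2L:3173098-3173298 and chr2L:8290936-8291136, which do.
Tyr-GTA-1-8: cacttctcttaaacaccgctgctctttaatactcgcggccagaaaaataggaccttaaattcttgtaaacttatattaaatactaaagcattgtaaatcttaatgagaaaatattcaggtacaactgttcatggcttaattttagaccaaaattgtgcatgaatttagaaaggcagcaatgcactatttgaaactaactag
Ser-AGA-2-4: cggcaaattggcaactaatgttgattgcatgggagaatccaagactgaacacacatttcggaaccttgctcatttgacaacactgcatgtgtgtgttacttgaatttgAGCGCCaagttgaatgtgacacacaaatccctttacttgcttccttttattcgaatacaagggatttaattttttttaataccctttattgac
Lys-TTT-1-1: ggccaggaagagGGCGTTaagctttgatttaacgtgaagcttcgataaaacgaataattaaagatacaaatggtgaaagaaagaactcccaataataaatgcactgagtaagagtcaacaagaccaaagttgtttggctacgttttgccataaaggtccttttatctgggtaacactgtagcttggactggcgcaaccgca
Of the 24 summits near tRNA genes, 7 had a site in this window, a share of 29.2% with a 95% Wilson interval of 14.9 to 49.2%. The share was 14.2% over the other 3356 nuclear reproducible summits and 18.7% over windows of the same length 1000 bp to the left and right of those. The interval of the tRNA summits, which covers counting error only, includes both shares.

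Reproducible Brinker-eGFP summits lay near 34 of the 290 nuclear tRNA genes, beside them rather than in them. The share was 11.7% with a 95% Wilson interval of 8.51 to 15.9%, and the 34 genes shared 24 distinct peaks. A gene of the same length placed at every position of the same arm would have lain within 500 bp of a summit in 2.53% of positions, which sums to 7.34 genes. The observed count was 4.63 times that sum. Over all other annotated genes the share was 13.6%, 2436 of 17874, so tRNA genes were near a summit about as often as other genes by this measure. Most of those genes are far longer, and protein-coding genes had a median length of 2166 bp and a share of 15.1%. Measured from the 5′ end alone, 33 tRNA genes had a summit within 500 bp, 11.4%, beside 7.99% of all other genes and 8.82% of protein-coding genes. That order did not hold in both replicates. With the strongest peaks of each replicate alone, 8.97% of tRNA 5′ ends against 9.68% of other 5′ ends were near a summit in replicate 3, and 8.62% against 7.65% in replicate 4.

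**Figure D1:**
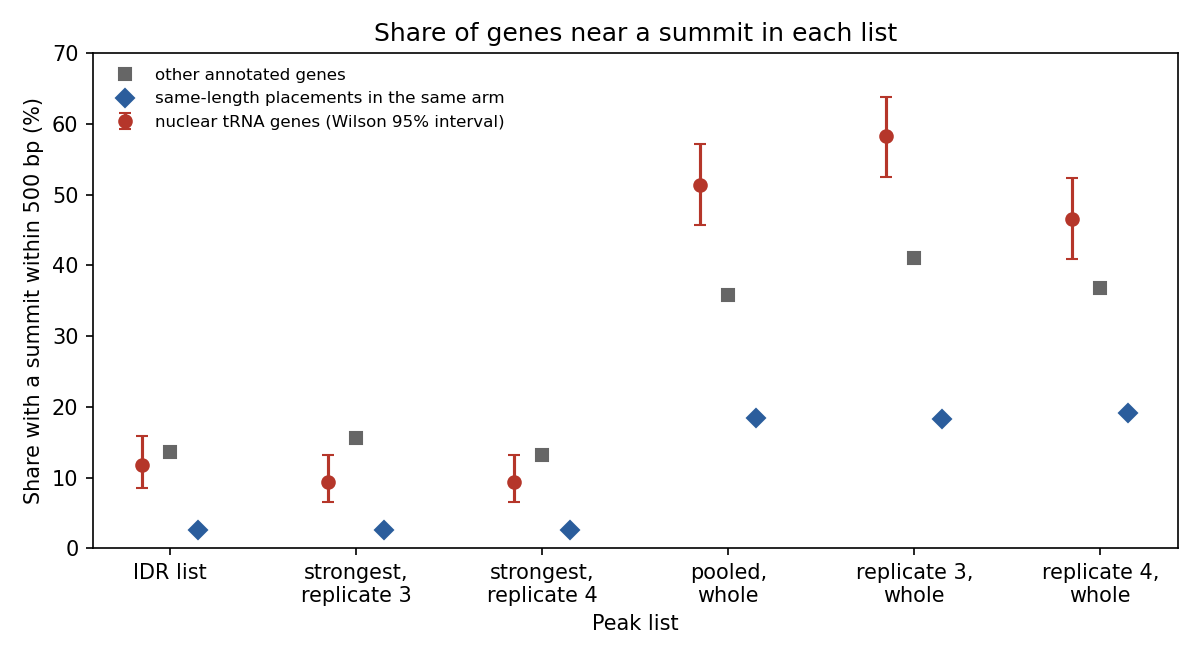
Share of genes with a summit within 500 bp (y axis, percent) in 6 peak lists (x axis), for nuclear tRNA genes with Wilson 95% intervals, for all other annotated genes, and for placements of tRNA length in the same arm. The tRNA share lies above the placement share in every list shown, and above that of other genes in the 3 whole lists alone.

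The strongest of the 24 peaks stood by Tyr-GTA-1-8, a tyrosine tRNA gene with an intron. Its deposited signal was 399.5 in the reproducible list, rank 100 of 3380, with 176 in replicate 3 and 223 in replicate 4. Replicate values of a peak are those of the strongest replicate entry that overlaps it, unless another entry is named. The summit lay 170 bp upstream of the gene and 274 bp from the start site of the protein-coding gene CG8036; the tRNA gene sits in introns of CG8036, on its opposite strand, and of p, on the same strand. Tyr-GTA-1-7, the near-identical copy in the same intron, was 639 bp from that summit and outside the threshold. It did have a weaker pooled summit inside the gene, of signal 54.8, with 47.5 in replicate 3 and 14.6 in replicate 4. The copies that differ by 2 bases thus had peaks of different strength and position around them.

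The second peak, by Gln-TTG-2-1, had a signal of 338.5, rank 171, with 188 in replicate 3 and 170 in replicate 4. Its summit lay 245 bp upstream of the glutamine tRNA gene, in an intron of CG12535, and 8039 bp from the nearest protein-coding start site. Both of these peaks were narrow, 232 and 209 bp, beside a median width of 416 bp in either set of peaks. Narrow intervals were also seen at strong peaks elsewhere, such as the peak of signal 457 at Brf, chr3R:17391335-17391643. The width is thus not particular to peaks near tRNA genes.

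The third, by Leu-TAA-2-1, had a signal of 191 with 84.9 in replicate 3 and 108 in replicate 4, and its summit was 233 bp upstream of the gene and 342 bp from the start of CG13605. The fourth was shared by Trp-CCA-2-2 and Gly-GCC-1-9 and had a signal of 179, with 102 and 83.9 in replicates 3 and 4, 148 bp from the start of CG30122. The remaining 20 peaks had signals of 84.4 to 157. Most peaks near tRNA genes were thus among the weaker reproducible ones. Their median was 104 with quartiles of 92.7 and 151, beside 119 with quartiles of 97.3 and 172 for the other nuclear peaks. Ranked by signal among all nuclear peaks, 4 of the 24 were above the upper quartile, 9 above the median and 10 below the lower quartile.

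Signals of 100 to 160 were found at peaks of very different setting. Val-CAC-2-5 (157; 59.9 in replicate 3, 93.6 in replicate 4) and its peak lay in the Naam gene. Ala-TGC-2-1 (155; 105 and 52.3) and Glu-TTC-1-5 (149; 64.5 and 85.1) lay between protein-coding genes. Lys-TTT-1-1 had a peak of 136 (69.5 and 65.1) in an intron of Btk, which encodes a tyrosine kinase, and Ile-TAT-1-1 one of 125 (85.9 and 55.9) that was 13761 bp from the nearest protein-coding start. The pair Gln-TTG-1-2 and Gln-TTG-1-3 shared a peak of 116 (77.2 and 49.2) whose summit lay between them. Ile-AAT-1-3 and Leu-CAA-2-1 shared one of 111 (60.3 and 52.6), Ser-AGA-2-4 had one of 106 (53.8 and 48.8), and Arg-CCT-1-2 and Arg-CCT-1-3 shared one of 102 (66.2 and 42.1). Neither replicate was the higher one throughout.

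Below a signal of 100 there were 11 peaks, near 17 tRNA genes. They were at Arg-TCG-2-4 (98.2), the pair Tyr-GTA-1-4 and Tyr-GTA-1-5 (95.8), Asn-GTT-1-3 (95.3), Lys-TTT-2-1 (93.4) and the cluster of Cys-GCA-1-1, Cys-GCA-1-2, Cys-GCA-1-3 and Lys-CTT-1-12 (92.9). The others were at Gly-TCC-1-2 (92.2), Arg-ACG-1-1 (91.5), Val-CAC-1-1 (90.1), Leu-TAA-4-1 (89.3), the pair Gln-CTG-2-2 and Gln-CTG-2-3 (89.3) and the pair Asn-GTT-1-1 and Asn-GTT-1-2 (84.4). The lowest signal of any nuclear reproducible peak was 82.6, so these values lie close to the end of the list.

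**Figure D2:**
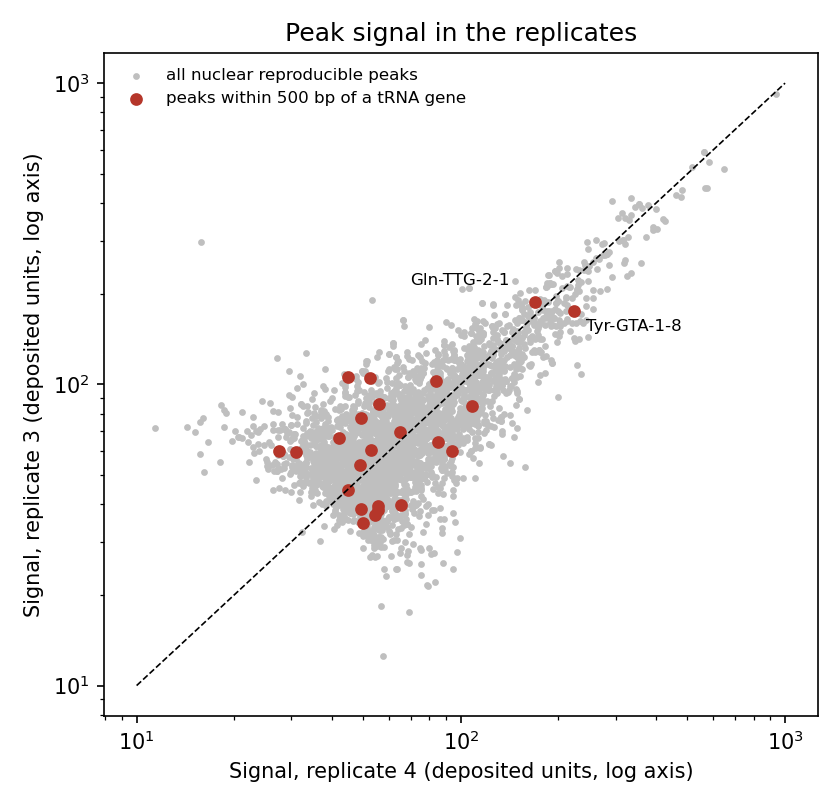
Deposited peak signal in replicate 4 (x axis) and replicate 3 (y axis), both on log axes, for all nuclear reproducible peaks with an entry in both replicates (grey) and for the 23 of them near tRNA genes (red), each replicate by its strongest entry that overlaps the peak; the dashed line marks equal values. The peaks near tRNA genes scatter to both sides of the line, and the 2 strongest, at Tyr-GTA-1-8 and Gln-TTG-2-1, lie closest to the strong end.

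The replicates differed at single peaks by more than they did on average. Over the 23 peaks with an entry in both replicate lists, the log2 ratio of replicate 3 over 4 had a median of 0.09 and an SD of 0.62 across peaks. Its median was 0.03 with an SD of 0.55 over the other nuclear peaks. Replicate 3 was the higher at 12 peaks and replicate 4 at 11. At Arg-ACG-1-1 the strongest overlapping entries, 106 in replicate 3 and 44.9 in replicate 4, had summits farther than 500 bp from the gene; with the entry of the nearest summit at every peak the median ratio was again 0.09. The ratio takes the replicate signals to be on 1 scale, which was not tested. The peak with no replicate 4 entry was the one at the Cys-GCA cluster on arm 3L, in an intron of Cht7, which had 84.0 in replicate 3. All 34 bound genes had a summit of the whole replicate 3 list within 500 bp, and 30 also had one of replicate 4, the exceptions being the 4 genes of that cluster. When the strongest peaks of each replicate were taken, as many as in the reproducible list, 27 tRNA genes were near a summit in each replicate, 3.64 and 3.66 times the placement sum. Of those 27, 17 genes were the same in both replicates, 63.0% of each set. The share of other genes was 15.6% in replicate 3 and 13.2% in replicate 4, beside 9.31% of tRNA genes in both.

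Reproducible summits stood most densely a little way off the tRNA genes. Measured by distance from the nearest tRNA gene, the reproducible list held 13 summits between 101 and 250 bp, 8.06 times the number at the arm average. It held 4 between 1 and 100 bp, 2.85 times, and 7 between 251 and 500 bp, 3.06 times. None lay inside a tRNA gene, where the arm average gives 0.552 in all, so the empty class carries little information. Between 501 and 1000 bp the density was 1.69 times the arm average and between 5001 and 10000 bp 1.76 times, so the wider surroundings were above it too. The excess between 101 and 250 bp was 7.99 times with the strongest peaks of replicate 3 (13 summits) and 4.92 times with those of replicate 4 (8 summits). In the whole pooled list it was 4.25 times (59 summits), and there 14 summits lay inside tRNA genes, 2.95 times the arm average. The whole list of replicate 3 gave 5.04 times between 101 and 250 bp and 2.95 times inside. In the whole list of replicate 4 these classes differed little, with 2.70 times inside, 2.86 times between 1 and 100 bp and 2.99 times between 101 and 250 bp.

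**Figure D3:**
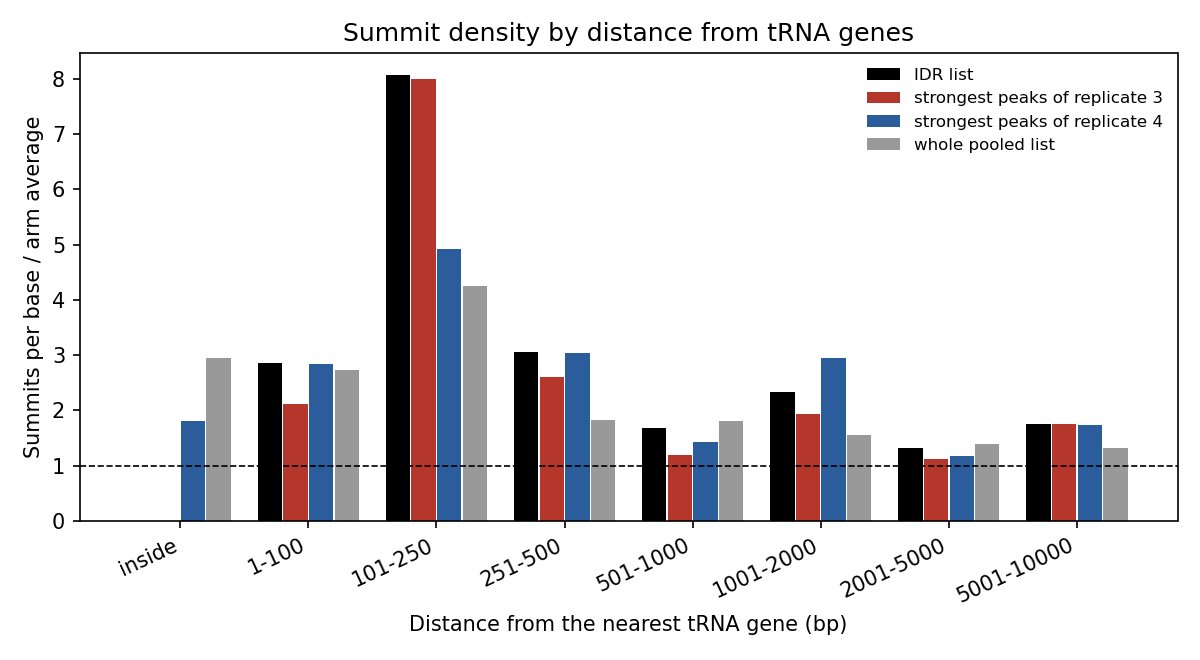
Number of summits per base divided by the arm average (y axis) in classes of distance from the nearest tRNA gene (x axis), for 4 peak lists; the dashed line marks the arm average. In all 4 lists the class of 101 to 250 bp is the highest, at 8.06 in the IDR list, 7.99 and 4.92 in the replicates' strongest peaks and 4.25 in the whole pooled list.

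Most reproducible summits lay on the upstream side of their nearest tRNA gene. This was so for 19 of the 24 peaks, with 5 downstream and 0 inside, and for 13 of the 16 peaks away from protein-coding promoters. In the strongest peaks of replicate 3 the upstream side held 17 of 22 and in those of replicate 4 14 of 20. In the whole pooled list, which includes weak entries, 74 of 142 summits were upstream, 14 inside and 54 downstream, so the upstream side held more there too, by a smaller margin. The whole replicate lists gave 86 upstream and 62 downstream in replicate 3 and 67 and 50 in replicate 4. At the 90 tRNA genes with no other within 2000 bp, the pooled order was reversed. Counted by gene, the nearest pooled summit was upstream at 15 of them, inside at 6 and downstream at 19. The whole replicate lists gave 18 upstream and 16 downstream there in replicate 3 and 17 and 16 in replicate 4, and the reproducible list 4 and 2. Counted by gene, with both neighbours of a shared peak, 23 of the 34 bound genes had the summit upstream and 11 downstream. Summit distances ran from 41 to 457 bp with a median of 228 bp. Peak intervals reached into a tRNA gene at 12 of the 24 peaks. On the outer side of the 500 bp threshold the nearest genes were Ile-AAT-1-4 at 540 bp, Lys-CTT-1-1 at 581 bp, Pro-TGG-1-1 at 600 bp, Tyr-GTA-1-7 at 639 bp and Glu-TTC-1-6 at 653 bp, and on the inner side Ala-TGC-2-1 was at 457 bp and Val-CAC-2-5 at 425 bp.

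**Figure D4:**
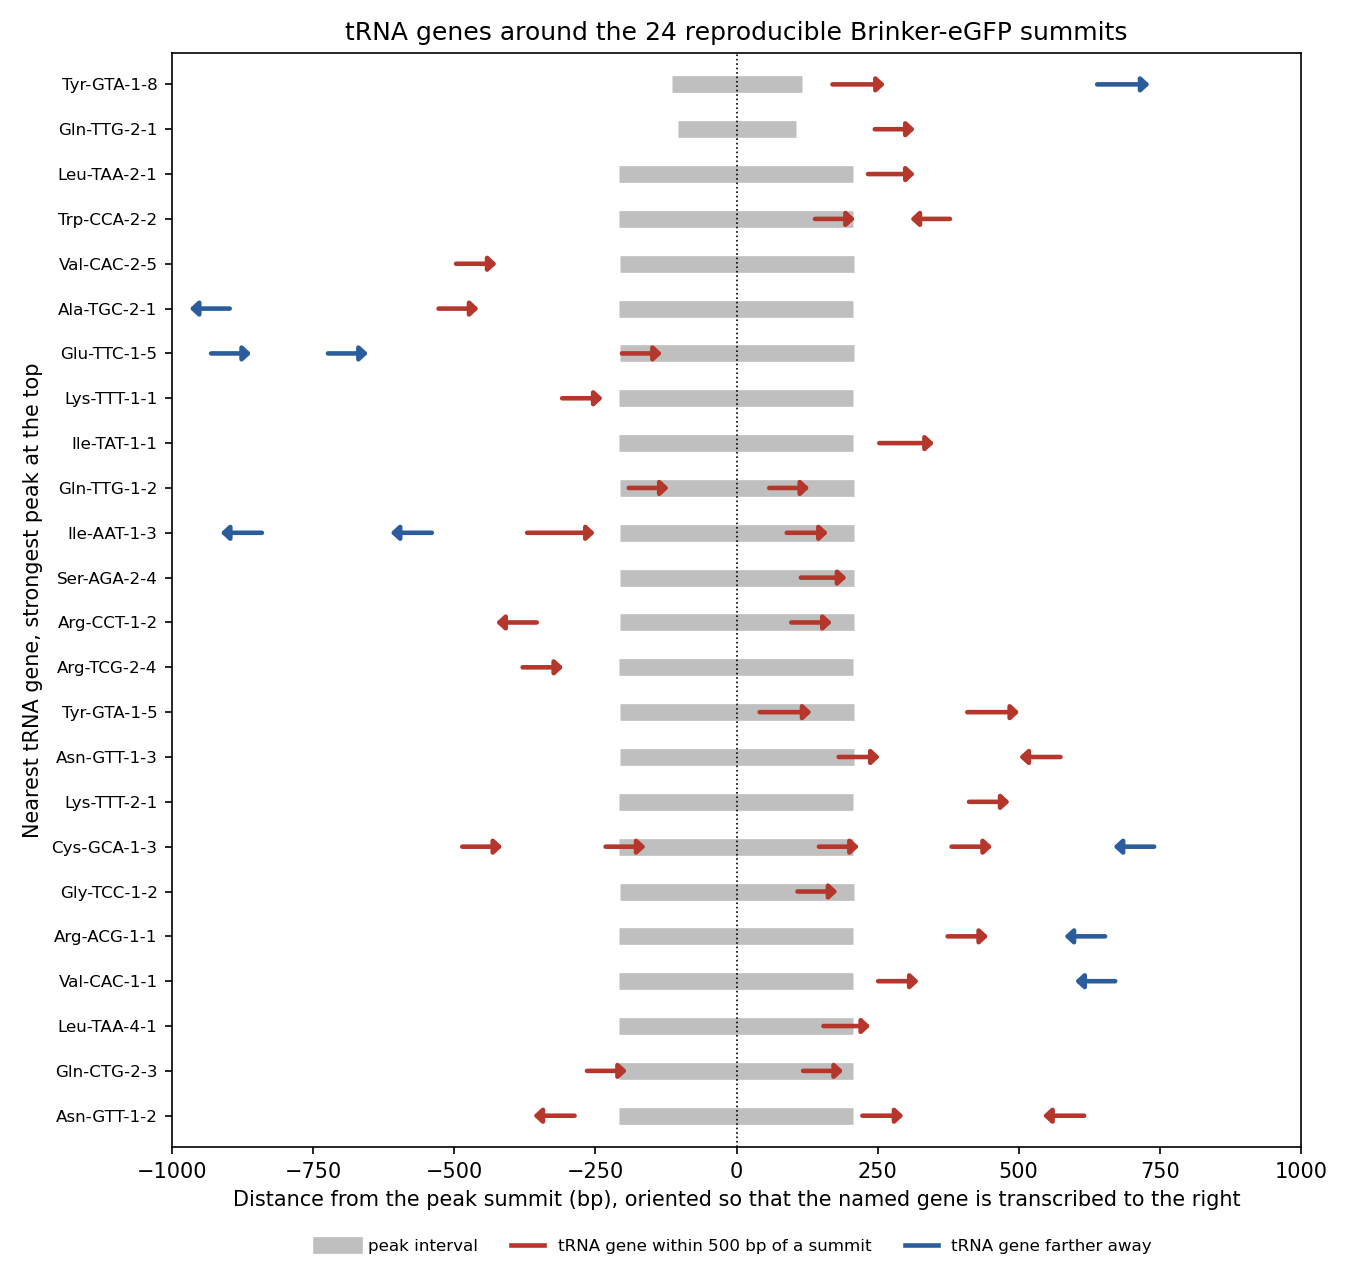
Map of the 24 reproducible peaks near tRNA genes, 1 per line with the strongest at the top, as distance from the summit (x axis, bp) and turned so that the nearest tRNA gene, named at the left, is transcribed to the right. Grey bars are peak intervals and arrows tRNA genes, red where within 500 bp of a summit; in 19 lines the named gene starts to the right of the summit.

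B box letters were in most tRNA genes, while the windows around the summits seldom reached into such a gene. The wider B box pattern GTTCNANNC was found in 271 of 290 tRNA genes, 93.4%, and in all 34 bound genes. The stricter B box core GGTTCGA, which overlaps that pattern, was in 145 genes and in 18 of the 34, and the A box pattern in 168 genes, 57.9%, and in 16 of the 34. Within 100 bp of the 24 summits there was no match to either B box pattern (0 of 24, interval up to 13.8%), and A box letters were in 2 windows, 8.33%. Only 4 of these summits lay within 100 bp of a tRNA gene. Most windows therefore could not hold the boxes of the gene beside them, and no conclusion is drawn from the 0. Around the other nuclear summits these shares were 6.47% for the wider B box, 0.983% for the core and 20.2% for the A box. The Brinker site letters were in 62 of the 290 tRNA genes, 21.4%, and in 5 of the 34 bound ones, 14.7%. tRNA genes were rich in G and C, 58.1% ± 4.34 (SD across 290 genes), and the 300 bp on each side were poor in them, 35.0%. The windows around their summits were 33.7% ± 4.05 (SD across 24 windows), close to the 35.6% around other summits. Whether base composition moved peak calls next to tRNA genes was not tested.

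Of the 24 peaks 8 lay within 500 bp of a protein-coding start site, 33.3%, beside 40.7% of the other nuclear peaks. A further 8 lay elsewhere in protein-coding genes and 8 between them, with median signals of 136 in promoters, 94.1 in genes and 104 between them. A protein-coding start lay within 500 bp of 33 tRNA genes, of which 8 were bound, 24.2%. Among the 257 tRNA genes with none, 26 were bound, 10.1% with an interval of 7.00 to 14.4%. Placements with no protein-coding start within 500 bp gave 1.77%, a ratio of 5.71. When placements were also kept out of coding exons and transposable elements, the share was 2.29% and the ratio 4.42. The count was thus above placement also for tRNA genes with no protein-coding start within 500 bp. This split is by gene and not by summit. Among the 26, Val-CAC-2-5, Arg-TCG-2-4, Gly-TCC-1-2 and Gln-CTG-2-2 were bound through summits that did lie in promoters, and placements were not barred from such summits either. Of 127 tRNA genes in introns of protein-coding genes 15 were bound, 11.8%, a share close to the 11.5%, 18 of 156, outside such genes.

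Clusters were then counted once. Chaining tRNA genes with gaps of at most 1000 bp gave 174 loci, of which 23 were bound, 13.2% with an interval of 8.97 to 19.1%, where placement gives 5.36, a ratio of 4.29. Single genes were bound in 8 of 105 loci, 7.62%, loci of 2 or 3 genes in 12 of 59, 20.3%, and loci of 4 or more in 3 of 10, 30.0%. A longer locus offers more room for a summit, and its extent was not taken out of these shares. Of the 24 peaks, 16 had 1 tRNA gene within 500 bp, 7 had 2 and 1, at the Cys-GCA cluster, had 4.

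The largest clusters ranged from bound to bare. The 7 genes from Ile-AAT-1-3 to Leu-CAA-1-1, in the gene ATP8A, spanned 2513 bp and held 1 reproducible and 5 pooled summits. The 7 arginine and serine tRNA genes on the X, from Arg-TCG-2-1 to Arg-TCG-3-4, had no reproducible summit within 500 bp, and the stronger of their 2 pooled summits reached 27.2. The 6 genes of the Cys-GCA cluster, 4 of them bound, contrasted with 6 asparagine and arginine tRNA genes on 3R, from Asn-GTT-1-10 to Arg-ACG-1-10, where 3 pooled summits reached at most 50.0 and none was reproducible. By host gene, EcR, the ecdysone receptor gene, held the most tRNA genes, 13, of which 4 were bound through 3 peaks and 11 had a pooled summit within 500 bp. Those 4 are Asn-GTT-1-1, Asn-GTT-1-2, Asn-GTT-1-3 and Arg-ACG-1-1, and at the last the replicate entries with the nearest summit had 53.6 in replicate 3 and 28.0 in replicate 4. The 9 Glu-CTC-3 genes in Ptp61F, which encodes a tyrosine phosphatase, had none bound and 2 with a pooled summit.

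Bound genes were spread over 14 of the 22 amino acid classes. Glutamine had the most, 5 of 12 genes through 3 peaks, followed by arginine with 4 of 26 through 3 peaks. Cysteine (3 of 7, all through 1 peak), asparagine (3 of 10 through 2), tyrosine (3 of 10 through 2), leucine (3 of 22) and lysine (3 of 19) had 3 each. None was bound among 17 proline, 17 threonine, 14 aspartate, 8 phenylalanine, 6 methionine, 6 initiator methionine and 5 histidine genes or the selenocysteine gene. With so few peaks these classes were not compared further. By anticodon, 3 of 4 Gln-TTG genes were bound, beside 2 of 8 Gln-CTG genes. All 16 genes longer than 90 bp were of the families Tyr-GTA, Leu-CAA and Ile-TAT, and 5 of them, 31.3%, were bound through 4 peaks, beside 29 of the 274 shorter genes, 10.6%. By arm, 12 of 98 genes were bound on 2R, 12 of 79 on 3R, 5 of 48 on 3L, 4 of 41 on 2L and 1 of 24 on the X.

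**Figure D5:**
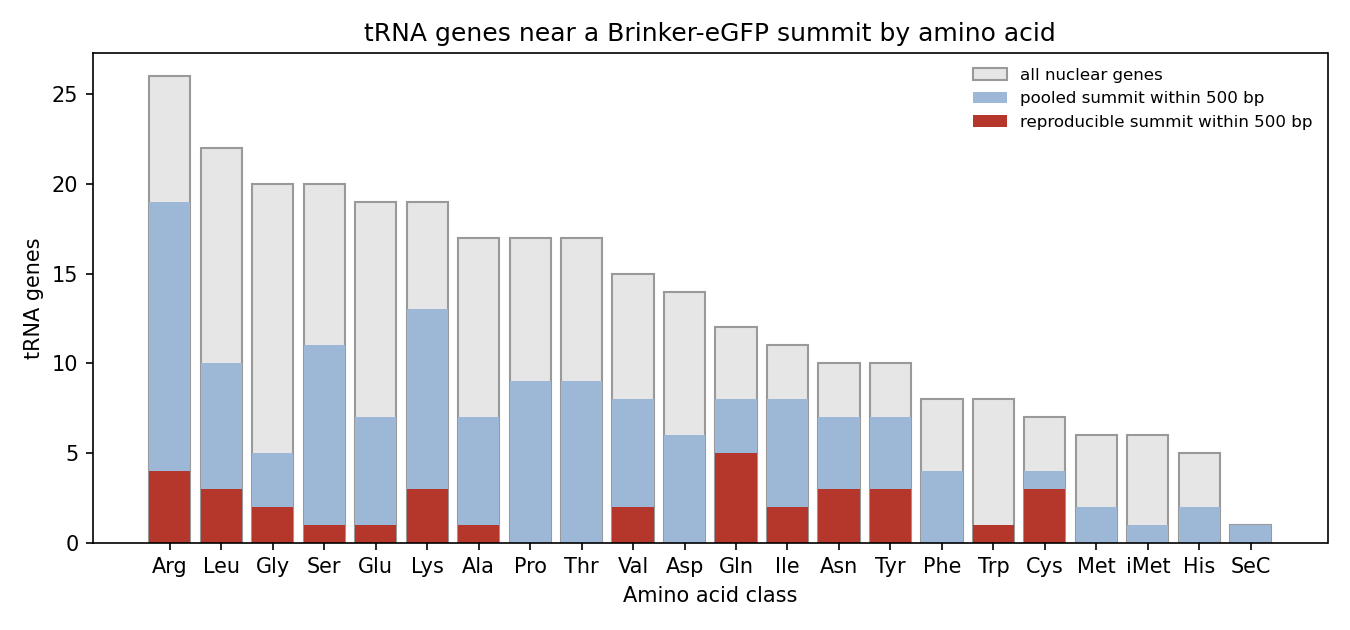
Number of nuclear tRNA genes (y axis) in each amino acid class (x axis), drawn as overlaid bars that all start at 0: all genes, those with a pooled summit within 500 bp and those with a reproducible one. Glutamine has the most genes with a reproducible summit, 5 of 12, and proline and threonine, with 17 genes each, have none.

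In no group of identical tRNA genes were all copies bound, which is likely in any case where 9.66% of such genes were bound. There were 95 distinct gene sequences, and 238 genes shared theirs with at least 1 other gene in 43 groups. A bound gene was in 16 of these groups, each bound only in part. Of the 13 identical Gly-GCC-1 genes only Gly-GCC-1-9 was bound, and of the 13 identical Lys-CTT-1 genes only Lys-CTT-1-12. A count of 1 in 13 is near the share over all repeated genes and does not set these groups apart. Reads from identical copies cannot be told apart within the gene itself, and the effect of this on peak calls was not tested. Among the 52 genes with no identical copy 11 were bound, 21.2%, which is 8.26 times placement, and among the 238 repeated genes 23, 9.66%. In the whole pooled list the shares were 50.0% and 51.7%, so that order was not seen there.

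The whole peak lists, which also hold background entries by design, placed a summit within 500 bp of many more tRNA genes. In the pooled list this was 149 genes, 51.4% with an interval of 45.6 to 57.1%, beside 35.7% of other genes and 18.4% of placements. It was 169 genes in replicate 3, 58.3%, beside 41% of other genes, and 135 in replicate 4, 46.6%, beside 36.8%. The ratios to placement were 2.79, 3.19 and 2.44. Both replicates had a summit near 110 genes, replicate 3 alone near 59, replicate 4 alone near 25, and neither near 96. No share of other genes or placements is set beside these counts, so they are not read as agreement between the replicates. There were 115 genes with a pooled but no reproducible summit within 500 bp. The median of their strongest pooled signals was 39.4 and the highest 79.7, at Leu-AAG-1-1, 38 bp from the gene, with 42.9 in replicate 3 and 34.2 in replicate 4. Glu-CTC-1-1 had a pooled summit inside the gene of nearly the same signal, 79.5, with 45.5 and 34.2. Around the 90 tRNA genes with no other within 2000 bp, pooled summits numbered 0.778 per kb over the 200 bp before the 5′ end and 0.889 per kb over the 200 bp from it, beside an arm average of 0.222. Of those 90, 6 had a reproducible summit within 500 bp, 6.67%, and 40 a pooled one.

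Among other short noncoding genes the share was lower for snoRNA and rRNA genes and similar for the few snRNA genes. Of 269 snoRNA genes, which guide modification of other RNAs and had a median length of 134 bp, 11 had a reproducible summit within 500 bp, 4.09% with an interval of 2.30 to 7.17%, where placement gives 7.10 genes. That interval lies below the one of the tRNA genes. None of 99 rRNA genes did, where placement gives 2.49, and only 1 of them, 1.01%, had even a pooled summit, beside 27.9% of snoRNA genes. This class was taken by biotype and was not kept apart from the 5S rRNA genes counted by name below. Both have a median length of 135 bp, so the 2 counts are not separate results. Of 32 snRNA genes, which encode spliceosomal RNAs for the most part, 4 had a reproducible summit, 12.5% with an interval of 4.97 to 28.1%, where placement gives 0.941. They were snRNA:U1:95Ca, snRNA:U4:39B, snRNA:U6:96Ab and snRNA:U6:96Ac, and the interval includes the tRNA share. RNA polymerase III also transcribes the 5S rRNA genes, the U6 snRNA genes, the 7SL RNA genes and the RNA genes of RNase P and RNase MRP. Of 100 genes named as 5S rRNA, 0 had a reproducible summit within 500 bp, where placement gives 2.45, and 1 had a pooled one. That sum takes each gene as placed on its own, and neighbouring 5S rRNA genes were not counted once as the tRNA loci were. The effect of identical copies on peak calls was not tested for them either, so the 0 is not read as a depletion. The 0 holds for the 5S rRNA genes and not for all other polymerase III genes. Of 3 U6 snRNA genes 2 had a reproducible summit within 500 bp, both through the same peak, where placement gives 0.0739. Of 4 genes for 7SL, RNase P and RNase MRP RNA, 1 had one, where placement gives 0.116. These genes are too few for a conclusion on polymerase III genes as a whole. snRNA:U6:96Ac held a summit inside the gene, with a signal of 125 (79.6 in replicate 3, 38.2 in replicate 4), 470 bp from snRNA:U6:96Ab and 1074 bp from snRNA:U6:96Aa. RNaseMRP:RNA had one 104 bp away, of 122 (73.0 and 48.7). The peak of Lys-TTT-2-1 was 649 bp from one 7SL gene, 7SLRNA:CR42652, and 3018 bp from the other, 7SLRNA:CR32864, so neither was bound, though pooled summits lay 430 and 363 bp from them. snRNA:U6atac had no summit of either list closer than 5429 bp. The nearest reproducible summit to RNaseP:RNA was 7770 bp away.

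The genes that make and charge tRNAs were examined from a list of 35: 15 for RNA polymerase III, its factors and regulators and 20 for aminoacyl-tRNA synthetases. A reproducible summit lay within 500 bp of the 5′ end of 5 of them, 14.3%, beside 8.82% of all protein-coding genes. With only 5 genes counted, the difference between these shares was not tested, and it is not read as an excess. The strongest was at Brf, a TFIIIB subunit, with a signal of 457, rank 65, and 206 in replicate 3 and 256 in replicate 4. Its summit was 157 bp from the 5′ end of Brf and 100 bp from that of sds22, so it cannot be assigned to one of them. Polr3E, a polymerase subunit, had a peak of 165 (76.5 and 88.9) 251 bp away, with the start of CG10584 closer at 214 bp. Polr3G, another subunit, had one of 125 (59.2 and 66.5) at 249 bp. The alanyl-tRNA synthetase gene AlaRS had a peak of 145 (71.8 and 67.4) at 42 bp and the glycyl-tRNA synthetase gene GlyRS one of 88.7 (45.5 and 44.6) at 185 bp. With the strongest peaks of replicate 3 alone the count was 8, and with those of replicate 4 alone 5. Over all annotated genes other than tRNA genes, 9.68% and 7.65% of 5′ ends were near such summits in replicates 3 and 4. At a reach of 5 kb from the gene body, 10 of the 35 had a summit, 28.6%, beside 26.9% of protein-coding genes.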

How the data were processed

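The values come from peak lists deposited by the authors for Brinker-eGFP ChIP-seq of replicates 3 and 4, in the dm6 build per the labels: 1 list per replicate, 1 pooled and 1 that passed the IDR step. Each entry has an interval, a summit and a signal. The signal is the deposited value of each peak; for its scale, for the aligner and caller and for the cutoff of the IDR step nothing is stated in the sources used here, and read depth is unknown. The lists in the older build were not used.

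Gene positions were taken from the Ensembl 115 annotation (BDGP 6.54) and sequence from RefSeq Release 6. Summits were set against genes with numpy 2.4.6 and pandas 2.3.3 in Python 3.11.15, and figures drawn with matplotlib 3.10.9. The placement share is exact over all positions of an arm, so no p-value was computed. Its arithmetic was checked against randomly drawn positions on the same arms, with the same reproducible summits. The 95% Wilson intervals cover counting error only and treat neighbouring genes as independent, which they are not. "Strongest peaks" are as many as the reproducible list holds. A promoter is the 500 bp to each side of a protein-coding start.

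The members, the lists and the tests were chosen with earlier results of these data known. The placements outside coding exons and transposable elements, the distance classes, the wider B box pattern, the side counts, the splits by copy, host and isolation and the group of U6, 7SL, RNase P and RNase MRP genes were chosen after seeing the data. Genes were named by rule: all bound tRNA genes, the 5 unbound ones closest to a summit, the largest clusters and the members of the polymerase III and synthetase list with a summit. Leu-AAG-1-1, Glu-CTC-1-1, the Ptp61F genes and the other polymerase III genes were named after their values were seen.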

Additional observations from a re-analysis of the deposited data

How the results depend on the processing

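No paired analysis was possible because all samples belong to 1 group. The count of 34 bound tRNA genes, 23 bound loci and the ratio of 4.63 to placement depended on the distance and on the list. Inside the gene, within 100 bp and within 250 bp the genes were 0, 4 and 20; the loci were 0 and 4 at the first 2 distances and the ratios 0 and 2.02. The whole pooled list gave 149 genes, 86 loci and 2.79, that of replicate 3 gave 169, 97 and 3.19, and that of replicate 4 gave 135, 83 and 2.44. Peaks at or above the median signal gave 10 genes, 9 loci and 2.62. Overlap of the peak interval with the gene gave 15 genes and 12 loci. Leaving out genes with identical copies gave 11 genes, 10 loci and a ratio of 8.26, by construction on fewer genes. Each replicate alone gave 27 genes, 19 to 20 loci and ratios of 3.64 to 3.66. Loci chained over 500 or 5000 bp gave 24 and 23. The 5 polymerase III and synthetase genes became 10 within 5 kb and 5 to 8 with 1 replicate alone. The median log2 ratio was -0.01 with replicate summits within 100 bp. The cause of these shifts was not tested. With placements outside coding exons and transposable elements, chosen after seeing the data, the ratio was 3.71.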
